A study of Homo sapiens with 36 samples.

Results

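Enzalutamide was set against its vehicle, DMSO, after 72 h in LNCaP cells, with 3 cultures in each group. These 6 libraries were chosen by their labels, group and hour, out of 36 libraries in the series. LNCaP is an established human prostate cancer line that grows in response to androgen, and per the labels it was kept in RPMI medium with 10% fetal bovine serum, a medium from which the labels do not say that steroids were removed. The treated cultures had 3 µM enzalutamide and the controls had DMSO alone. The other libraries had enzalutamide or DMSO for 8 or 24 h, or 3 µM of the PARP inhibitor olaparib without or with 3 µM enzalutamide for 8, 24 or 72 h. They entered the estimate of the spread between cultures, and some are compared with the 72 h effect further on. All cultures are of 1 cell line, and the p-values measure the spread between cultures of that line.

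The androgen receptor is a nuclear hormone receptor that, once bound by androgen, enters the nucleus and binds response elements in the DNA near genes of prostate secretion, lipid synthesis and growth. Enzalutamide occupies the hormone-binding pocket of the receptor, hinders its entry into the nucleus and its binding to DNA, and is used as a drug against prostate cancer. Prostate-specific antigen, the product of KLK3, is the best known readout of receptor activity in the luminal cells of the prostate and in LNCaP cells.

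By its marker genes the RNA was that of luminal prostate cells. The summed level of 10 luminal markers was 5176 to 6133 CPM (counts relative to the library's total, with library totals adjusted by the TMM method) in the DMSO cultures and 4140 to 4237 CPM in the enzalutamide cultures. Of the basal cell markers, KRT5, KRT15, KRT17 and TP63 had no count in any of the 6 libraries, and the 6 basal markers together reached at most 1.84 CPM. The neuroendocrine regulators INSM1 and NEUROD1 were also at 0 in all 6, and the 6 neuroendocrine markers summed to 1.97 to 2.63 CPM under DMSO and 1.82 to 2.31 CPM under enzalutamide. Summed blood markers stayed under 1 CPM, with the leukocyte gene PTPRC at 0.

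DMSO replicate 1 at 72 h stood apart from the other control cultures. It had the fewest counts of the 6 libraries, 4.66 M against 6.9 to 13.4 M in the others. By its library name it was run in lane 6, and the lane 6 library had the fewest counts in every group of the series. Low depth was thus not particular to this culture. Mitochondrial genes took 1.54% of its counts, where DMSO replicates 2 and 3 had 5.56% and 3.97% and the enzalutamide cultures 5.06 to 5.39%. The biological coefficient of variation, the spread between cultures beyond counting noise, was 14.3% among the DMSO cultures and 3.91% among the enzalutamide cultures. It was 6.98% for the DMSO pair without replicate 1, and 16% and 17.9% for the pairs that held it. Results are therefore given with all 6 libraries, and values without DMSO replicate 1 are added for genes and lists that moved with it.

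At 72 h, 4287 of 15744 genes tested were called changed (27.2%) at an adjusted p below 0.05, of which 1996 rose (12.7%) and 2291 fell (14.6%). Most changes were small, with a median absolute log2 fold change of 0.41 among the called genes, or 1.33-fold. A change of at least 2-fold was called for 596 genes (3.79%), 357 higher (2.27%) and 239 lower (1.52%), and the order reversed at 4-fold, with 59 higher and 84 lower. The 3 cultures of one group lay wholly above or below the 3 of the other for 5570 genes (35.4%; enzalutamide above in 17.6% and below in 17.7%), and these held 3863 of the 4287 called genes. In bulk RNA, fewer cells that express a gene and less of its RNA per cell cannot be told apart.

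The kallikreins, serine proteases that the prostate secretes, fell furthest as a family. KLK3 was at 819, 689 and 726 CPM in the DMSO cultures and at 5.74, 7.83 and 8.2 CPM under enzalutamide, a 102-fold fall (adjusted p 1.9e-30). KLK2, which encodes the protease that activates prostate-specific antigen, was at 323, 332 and 310 CPM against 2.52, 3.36 and 3.02 CPM, a 109-fold fall (adjusted p 1.9e-30). Every enzalutamide culture thus kept about 1 percent of the control level of both, and the groups were far from overlapping. KLK4, a further prostate kallikrein, fell by 3.24 ± 0.08 on the log2 scale (adjusted p 3.1e-28), from 484, 647 and 615 CPM to 56.2, 66.7 and 63.1 CPM. The pseudogene KLKP1 fell by 3.81 ± 0.32 (adjusted p 4.6e-12) and KLK15 fell by 2.85 ± 0.33 (adjusted p 1.1e-08). These were all 5 kallikreins with enough counts to test, of 16 in the list, and all were also called without DMSO replicate 1. They lie side by side on chromosome 19 of GRCh38, from KLK15 at chr19:50825289-50837213 over KLK3 at chr19:50854915-50860764, KLK2 at chr19:50861568-50880567 and KLKP1 at chr19:50882096-50896398 to KLK4 at chr19:50906352-50910738. KLK2 and KLK3 are similar in sequence, so a few of their reads may be shared.

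The promoters of the 2 genes that fell most among the kallikreins, and of the androgen-repressed gene UGT2B15 described further on, show where a known androgen receptor motif stands in genes that moved in opposite directions. The motif is AGAACA, one arm of the androgen response element, searched on both strands (also as TGTTCT) in the 250 bases before and 50 after each gene's start, in RefSeq sequences of GRCh38.p14. Each line gives the 50 bases at positions -190 to -141 from the start, 5′ to 3′ on the gene's strand, with the hexamer in capitals. The KLK3 window is chr19:50854725-50854774 on the plus strand, the KLK2 window chr19:50873249-50873298 on the plus strand and the UGT2B15 window chr4:68670793-68670842 on the minus strand. The KLK2 window is set by its RefSeq start and lies inside the longer span of the gene given above.
KLK3: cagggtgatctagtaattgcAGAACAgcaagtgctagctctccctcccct
KLK2: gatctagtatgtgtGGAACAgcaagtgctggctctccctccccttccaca
UGT2B15: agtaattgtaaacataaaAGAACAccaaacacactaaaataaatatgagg
The hexamer begins at position -170 in KLK3 and at -172 in UGT2B15. KLK2 has GGAACA in the matching stretch, beginning at -176, so its capitals mark a near match and not the motif searched. The motif stood in 4056 of 27305 promoters (14.9%). It stood in 926 of 10735 tested genes with a sequence (8.63%), in 18 of 152 genes that fell at least 2-fold (11.8%) and in 35 of 222 that rose at least 2-fold (15.8%). A match describes letters in a short window and is not a measured binding site.

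Beyond the kallikreins, the strongest falls were in genes of varied roles. They were ranked among genes called also in a fit of only the 6 libraries, with a mean of at least 1 CPM and groups apart. PLA2G5, a secreted phospholipase, was at 2.17, 2.12 and 2.37 CPM under DMSO and had no count in any enzalutamide culture, so that it was at least 20.9-fold lower, taking 3 counts in the 3 treated libraries together as the limit. HPGD, which inactivates prostaglandins, had 88 counts in the DMSO cultures and 2 under enzalutamide, a scaled ratio of 49.3 with a 95% counting interval of 13.2 to 413. PGC, which encodes the protease precursor progastricsin, had 62 counts against 3, a ratio of 23.1 with an interval of 7.56 to 115. These intervals cover counting error only. ST6GALNAC1, which adds sialic acid to O-linked sugars, was at 20.9, 20.8 and 17.8 CPM against 0.101, 0.559 and 0.239 CPM (log2 fold change -6.13 ± 0.27, adjusted p 2.4e-20). CHRNA2, a nicotinic acetylcholine receptor subunit, was at 12, 15.5 and 13.7 CPM against 0.503, 0.14 and 0.239 CPM (-5.48 ± 0.31, adjusted p 3.9e-17). TRPM8, a cold-activated channel of prostate epithelium, fell 20-fold and SLC45A3, the gene of the prostate antigen prostein, 14.7-fold. SLC45A3 was tight among the treated cultures, at 15.5, 15.7 and 15.3 CPM, against 183, 255 and 239 CPM under DMSO. The list of the 12 strongest falls was completed by PSLNR, a noncoding RNA, and TRGC1, a T cell receptor gamma constant segment that prostate epithelium is known to transcribe, which fell 15.7-fold and 18.1-fold. TRGC1 has a near-identical neighbour, so its counts are uncertain.

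**Figure D1:**
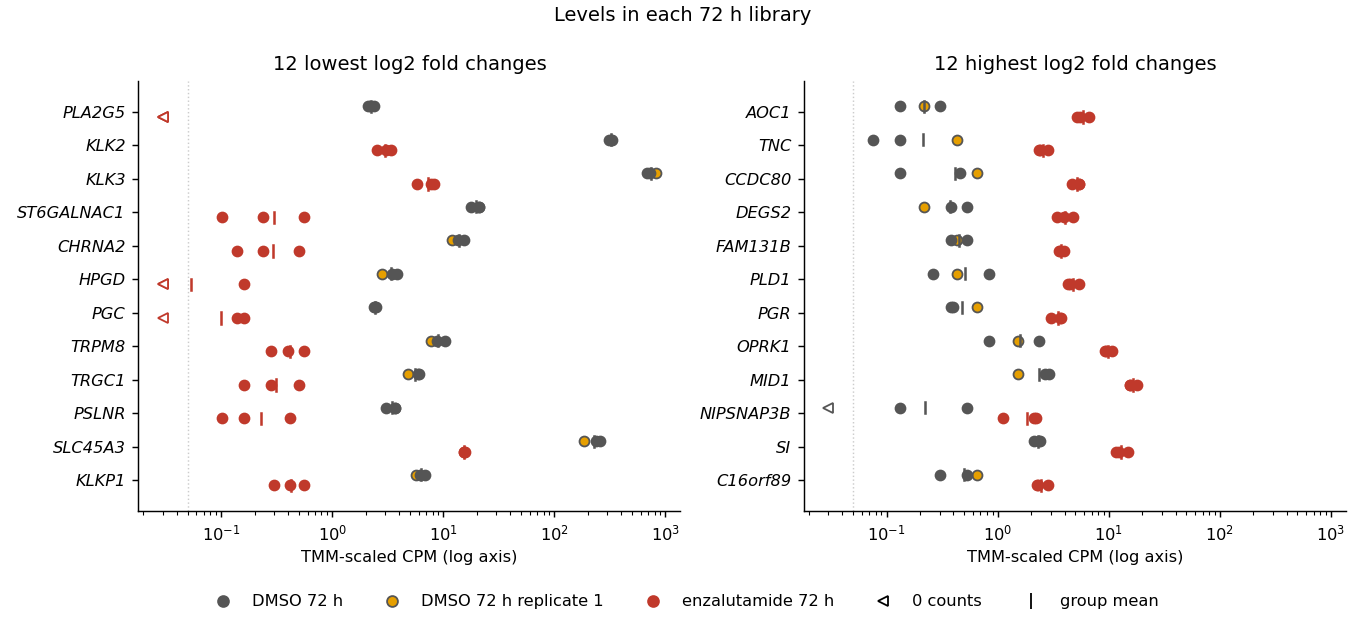
Levels in TMM-scaled CPM (log axis) of 12 falling and 12 rising genes at 72 h, 1 point per library, with group means as bars. DMSO replicate 1 is in orange, and open triangles are libraries with 0 counts. The genes have the lowest and highest log2 fold changes among those called in the fits of 36 and of 6 libraries. A mean of at least 1 CPM, groups apart and an ordinary symbol were further conditions. By that condition the enzalutamide cultures lie wholly on one side of the DMSO cultures for all 24 genes. The falling genes range under DMSO from PLA2G5, at 2.12 to 2.37 CPM, to KLK3, at 689 to 819 CPM.

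Ranked under the same conditions as the falls, the genes that rose most started from low levels. AOC1, a diamine oxidase that breaks down putrescine and histamine, was at 0.217, 0.303 and 0.132 CPM under DMSO and at 5.23, 6.71 and 5.57 CPM under enzalutamide (4.54 ± 0.36, adjusted p 6.8e-13). TNC, the matrix protein tenascin C, rose by 3.91 on the log2 scale, with DMSO replicate 1 the highest of its controls. CCDC80, a secreted matrix protein, was at 0.652, 0.454 and 0.132 CPM against 5.43, 5.45 and 4.69 CPM (3.67 ± 0.40, adjusted p 3.3e-09). DEGS2, a sphingolipid desaturase and hydroxylase, rose 9.88-fold and PLD1, a phospholipase D, 7.88-fold. The kappa opioid receptor gene OPRK1 rose from 1.52, 0.833 and 2.37 CPM to 10.7, 9.23 and 9.39 CPM. MID1, a ubiquitin ligase of microtubules, rose from 1.52, 2.65 and 2.9 CPM to 15.7, 15.7 and 18.1 CPM, and SI, which encodes the gut enzyme sucrase-isomaltase, rose 5.66-fold. FAM131B, C16orf89 and NIPSNAP3B rose 8.32-fold, 5.49-fold and 5.91-fold, and the progesterone receptor gene PGR, 7.67-fold higher, completed the 12. Groups that lie apart were a condition for choosing these 12 genes, and each was also called without DMSO replicate 1.

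Judged by the difference in CPM, and not by fold, other genes led. The order was taken among genes called with all 36 libraries and in a fit of only the 6, with groups apart. Mitochondrial genes that were not called did not enter it. Mitochondrial genes took 1.54% of counts in DMSO replicate 1, 5.56% and 3.97% in replicates 2 and 3, and 5.06 to 5.39% under enzalutamide. Within that order the largest gain was in ATP1B1, the beta subunit of the sodium pump. It rose from 528, 474 and 500 CPM to 1284, 1263 and 1225 CPM (1.33 ± 0.06, adjusted p 1.7e-20). CAMK2N1, an inhibitor of CaM kinase II, rose from 210, 293 and 318 CPM to 684, 677 and 695 CPM, with replicate 1 the lowest control. SELENBP1, a selenium-binding protein, rose 1.91-fold, ATP11A, a phospholipid flippase, 2.3-fold and AIDA, an axin partner, 2.38-fold. The largest losses in CPM were in FASN, fatty acid synthase, at 4333, 3421 and 3400 CPM under DMSO and 2210, 2311 and 2356 CPM under enzalutamide (-0.70 ± 0.09, adjusted p 1.3e-07, or -0.57 without DMSO replicate 1). RPL13A, a ribosomal protein, followed with 5698, 4790 and 5085 CPM against 4143, 3968 and 4331 CPM. GDF15, a stress cytokine of the TGF-beta family, and KLK3 came next, and ABHD2, a lipid hydrolase known as an androgen target, fell 1.7-fold.

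Most measured genes that androgen induces fell, while the progesterone receptor gene rose. Over all genes tested, 14.6% fell and 12.7% rose. PGR went from 0.652, 0.379 and 0.395 CPM to 3.72, 3.64 and 3.02 CPM. NR3C2, the mineralocorticoid receptor gene, was not called (-0.14 ± 0.15, adjusted p 0.51), and the glucocorticoid receptor gene had too few counts to test. Of 52 measured androgen-induced genes, 39 fell and 3 rose, with a median log2 fold change of -0.82 against -0.01 over all genes tested. Without DMSO replicate 1, 40 fell and 2 rose, with a median of -0.80. TMPRSS2, a membrane protease, was at 854, 761 and 754 CPM against 138, 128 and 134 CPM (5.91-fold), and FKBP5, a chaperone of steroid receptors, fell 2.04-fold. STEAP2, a metalloreductase, was 1 of the 3 that rose (0.31 ± 0.09, adjusted p 0.0053), and it was not called without DMSO replicate 1 (0.16, adjusted p 0.087), whose 573 CPM lay below the 848 and 788 CPM of the other controls.

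Androgen-repressed genes moved the other way: 8 of 13 measured members rose and 3 fell, with a median of 1.31. Over all genes tested, 12.7% rose and 14.6% fell. Without DMSO replicate 1, 10 rose and 3 fell, with a median of 1.17. The UGT2B enzymes, which attach glucuronic acid to androgens so that they can be excreted, were among them. UGT2B15 rose from 14.6, 18.6 and 18.8 CPM to 98, 89.2 and 88.6 CPM (5.17-fold, adjusted p 3.6e-20), and UGT2B17 from 11.7, 14.1 and 14.2 CPM to 52.9, 49.6 and 47.3 CPM (3.67-fold). UGT2B10 and UGT2B11, counted with the steroid metabolism enzymes, rose 4.77-fold and 3.52-fold. These genes are near neighbours in sequence and lie in 1 cluster on chromosome 4, so reads may be divided between them, and 18.5% of UGT2B11's exon bases also belong to another gene. MET, the hepatocyte growth factor receptor, rose 4.39-fold but only to 0.906, 1.26 and 1.11 CPM. HES6, a HES family factor that was put in this list, fell from 191, 101 and 118 CPM to 39, 35.9 and 41.5 CPM (3.41-fold). Among other steroid enzymes CYP11A1, which cuts the side chain of cholesterol, had 23 counts under DMSO and 2 under enzalutamide, a ratio of 12.9 with an interval of 3.18 to 113.

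Coregulators rose more often than they fell, and lineage factors changed in both directions, beside 12.7% higher and 14.6% lower of all genes tested. Of 33 androgen receptor coregulators, 13 rose and 3 fell, and without DMSO replicate 1 the counts were 7 and 4. In the fit of the 6 libraries 5 rose and none fell. The coactivator NCOA3 rose from 26.5, 37 and 29.8 CPM to 53, 61.4 and 53 CPM (0.79 ± 0.10, adjusted p 4.0e-08), and the corepressor TLE3 from 305, 321 and 293 CPM to 478, 489 and 529 CPM. GATA2, a pioneer factor for the receptor, rose 1.59-fold, at 356, 367 and 360 CPM against 578, 550 and 594 CPM. Among 16 prostate lineage factors 8 rose and 5 fell. SOX9, a factor of prostate progenitors, rose from 8.48, 9.62 and 6.32 CPM to 26.8, 29.8 and 29.4 CPM (3.43-fold, adjusted p 6.2e-15). FOXA1 was called higher, but its controls were at 426, 647 and 627 CPM against 729, 710 and 737 CPM, and its log2 fold change of 0.35 was 0.19 without replicate 1. HOXB13 differed by 0.15 (adjusted p 0.048) and was not called without replicate 1 (adjusted p 0.086).

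Identity genes of epithelium fell more often than they rose, beside 12.7% higher and 14.6% lower of all genes tested. Of 28 luminal keratins and adhesion genes 12 fell and 3 rose. KRT19 fell 4.98-fold from about 2 CPM, and DSC2, a desmosomal cadherin, fell from 63.5, 75.3 and 67.3 CPM to 36.2, 38.3 and 38 CPM. OCLN, occludin of the tight junction, rose 2.32-fold. KRT14, a basal keratin, was at 1.3, 1.74 and 1.71 CPM and had no count under enzalutamide, at least 15.7-fold lower. In the neuroendocrine list 2 of 10 rose and 1 fell. DDC, which makes dopamine and serotonin and is also a partner of the receptor, rose from 30.2, 28.8 and 31.1 CPM to 118, 120 and 109 CPM (3.87-fold, adjusted p 5.5e-19), with INSM1 and NEUROD1 at 0 as given above. Axon guidance and synaptic adhesion genes had 14 of 37 higher and 3 lower, with a median of 0.21. SEMA6A, a membrane semaphorin, rose from 31.3, 43.5 and 37.7 CPM to 88.9, 92.3 and 80.3 CPM, and SLITRK3, a synaptic adhesion protein, rose 2.19-fold.

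The summed level of 5 endothelial markers moved with treatment, from 8.86 to 10.8 CPM under DMSO to 3.52 to 5.01 CPM under enzalutamide. VWF, which encodes von Willebrand factor, fell from 9.35, 7.88 and 8.69 CPM to 2.72, 2.8 and 4.14 CPM, while PECAM1, CDH5 and KDR, which define endothelial cells, were at 0 in all 6 libraries. The part of other cells in these values was not tested. Summed stromal markers were at 28.1 to 36.3 CPM and 29.1 to 35.4 CPM, and COL1A2 and DES were at 0.

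Genes of the secretory route fell, with small folds, beside 12.7% higher and 14.6% lower of all genes tested. Of 50 endoplasmic reticulum folding and secretory genes 28 fell and 1 rose, with a median of -0.22. SEC11C, a signal peptidase subunit, fell from 56.3, 50.2 and 59.5 CPM to 39, 32 and 30.6 CPM (-0.70 ± 0.10, adjusted p 6.3e-07). In the fit of the 6 libraries alone, which estimates the spread from these 2 groups, 11 of the 50 were lower and none higher. Of 28 glycosylation enzymes 15 fell and 3 rose. UAP1, which makes the sugar donor UDP-GlcNAc, fell from 138, 144 and 163 CPM to 46.1, 50.2 and 51.7 CPM (3.01-fold, adjusted p 4.0e-21), and GALNT7, which starts O-linked chains, fell 2.72-fold. Vesicle genes were split, 3 higher and 8 lower of 29. SYTL2, a Rab27 effector of granule docking, rose from 9.57, 6.89 and 4.21 CPM to 23.5, 26.8 and 25 CPM, while RAB3B, a secretory vesicle GTPase, fell from 60.2, 70.9 and 58.9 CPM to 25.6, 25.7 and 25.8 CPM.

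Amino acid stress and supply genes fell as a group, beside 12.7% higher and 14.6% lower of all genes tested. ATF4 is the transcription factor of the integrated stress response, which raises amino acid transport and synthesis when supply or folding fails. Of 24 measured ATF4 response genes 19 fell and none rose, with a median of -0.54, and 18 fell without DMSO replicate 1. TRIB3, a pseudokinase of that response, was at 178, 190 and 188 CPM against 89.9, 79.7 and 88.2 CPM (-1.11 ± 0.07, adjusted p 9.4e-15). CHAC1, which degrades glutathione, was at 53.1, 59.5 and 55.7 CPM against 30.2, 23.9 and 27.4 CPM (-1.05 ± 0.11). Of 20 aminoacyl-tRNA synthetases, which load amino acids onto tRNA, 16 fell, or 13 without DMSO replicate 1. GARS1, the glycine enzyme, was at 573, 523 and 520 CPM against 343, 350 and 343 CPM. Of 20 genes of serine, one-carbon and asparagine synthesis 14 fell. Among 22 amino acid transporters 9 fell and 3 rose. SLC43A1, a transporter of branched and aromatic amino acids, fell from 107, 118 and 112 CPM to 42.7, 37.3 and 41.1 CPM (2.78-fold), and SLC6A20, a proline transporter, rose 4.42-fold from below 1 CPM. DMSO replicate 1 lay 0.20 above the other controls in the median log2 level of the ATF4 list and 0.17 above them in that of the synthetases.

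Genes of lipid synthesis fell more often than they rose, beside 12.7% higher and 14.6% lower of all genes tested. Of 26 cholesterol synthesis genes 16 fell and 2 rose, with a median of -0.36. INSIG1, which holds the sterol sensor in the endoplasmic reticulum, fell 1.88-fold and its paralog INSIG2 rose 1.68-fold. Fatty acid synthesis had 12 of 26 genes lower and 3 higher. ELOVL7, an elongase of saturated very long chain fatty acids, fell from 54.2, 60.9 and 64 CPM to 6.04, 6.85 and 7.32 CPM (8.87-fold, adjusted p 1.6e-23), and ELOVL5, which lengthens polyunsaturated chains, fell 2.25-fold. Of 11 LXR and sterol efflux genes 3 rose and 3 fell. ABCA1, the sterol export pump, rose from 1.96, 1.97 and 1.71 CPM to 7.14, 8.11 and 8.35 CPM (4.15-fold). In the eicosanoid list 2 of 16 rose and 7 fell. PLA2G2A, a secreted phospholipase, rose 4-fold to 92.5, 96.3 and 85.5 CPM, while the related PLA2G5, its neighbour on chromosome 1, was at 0 as given above. The prostaglandin F receptor gene PTGFR fell from 62, 85.9 and 84 CPM to 30.2, 34.1 and 29 CPM. The polyamine list had 7 of 18 lower and AOC1 as its 1 higher member.

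Energy and growth machinery fell by small amounts, beside 12.7% higher and 14.6% lower of all genes tested, and here the controls were uneven. Of 36 glycolysis and hypoxia genes 20 fell and 2 rose. Among MYC targets and ribosome biogenesis genes 22 of 41 were called lower and 0 higher, with a median of -0.25 that was -0.16 without DMSO replicate 1. NCL, nucleolin, was at 3076, 1841 and 1929 CPM against 1618, 1596 and 1506 CPM, and its log2 fold change of -0.53 was -0.26 without replicate 1 (adjusted p 3.8e-04). NPM1, nucleophosmin, was steadier, at 1527, 1391 and 1574 CPM against 1105, 1084 and 1024 CPM, with -0.48 and -0.47. MYC fell from 431, 491 and 452 CPM to 314, 309 and 329 CPM. Of 78 cytosolic ribosomal protein genes 49 fell and none rose, with a median of -0.21. FAU, a ribosomal protein fusion gene, was at 579, 304 and 330 CPM against 295, 272 and 292 CPM and was not called without replicate 1 (-0.14, adjusted p 0.083). Without replicate 1, 48 of the 78 were called lower, and in the fit of the 6 libraries 9 were. Of 58 nuclear genes of the respiratory chain 18 fell and 1 rose, 12 and 0 without replicate 1, and 0 higher with 2 lower in the fit of the 6 libraries. In that fit 6.3% of all genes tested were higher and 6.04% lower, so these nuclear genes showed no excess of falls there. The 13 respiratory chain genes of the mitochondrion had a median log2 fold change of 0.47, or 0.05 without DMSO replicate 1, whose median for these genes stood at -2.03 from the other controls. By edgeR 0 of the 13 were called, as by DESeq2, but all 13 were called without DMSO replicate 2 or with no filter on low counts.

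Growth factor signalling genes held changes in both directions, beside 12.7% higher and 14.6% lower of all genes tested. IGF1R, the receptor of insulin-like growth factor, fell from 36.1, 39.7 and 38.6 CPM to 10.4, 11.3 and 10.3 CPM (3.63-fold, adjusted p 3.1e-16), and FGFR3 fell 2.85-fold, in a receptor tyrosine kinase list with 6 of 26 higher and 4 lower. ROR2, a receptor for WNT5A, rose 4.86-fold to 2.72, 3.08 and 2.94 CPM, and WNT5A itself rose from 4.57, 3.63 and 4.21 CPM to 15.2, 13.8 and 13 CPM (3.48-fold, adjusted p 3.9e-11). Of 29 WNT pathway genes 7 rose and 3 fell, 6 in all without DMSO replicate 1 or without enzalutamide replicate 3. GRB10, an adaptor that dampens insulin receptor signals, rose from 223, 223 and 217 CPM to 562, 555 and 562 CPM (2.53-fold, adjusted p 1.6e-23). FOXO3, a factor held in check by AKT, rose 1.66-fold and INPP4B, a lipid phosphatase known as an androgen target, fell 3.2-fold. The PI3K and mTOR list had 7 of 30 higher and 6 lower.

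The inhibitors of differentiation ID1 and ID3, targets of bone morphogenetic protein signals, rose 2.86-fold and 3.44-fold. ID3 was at 5.65, 5.68 and 4.48 CPM against 20.4, 14.8 and 18.9 CPM, while PMEPA1, a feedback inhibitor of TGF-beta signals that androgen induces, fell from 69.8, 80.5 and 76.1 CPM to 24.7, 21.3 and 23.6 CPM. Beside 12.7% higher and 14.6% lower of all genes tested, 7 of 27 TGF-beta and BMP pathway genes rose and 3 fell. Among 21 YAP and TEAD target genes 7 rose and 3 fell. YAP1 rose 1.44-fold, and its relative WWTR1, near 1 CPM under DMSO, fell to 0.402, 0 and 0.159 CPM. Of 15 NF-kB genes 7 fell and none rose, and 4 were called without enzalutamide replicate 2. IL32, a cytokine gene, fell from 10.2, 9.69 and 10.4 CPM to 2.92, 4.89 and 4.06 CPM. TRAF1, a signal adaptor of tumour necrosis factor receptors, had 12 counts against 1, a ratio of 13.4 with an interval of 1.99 to 575.

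Genes of surface display, channels and cell death changed in part, where 12.7% of all genes tested were higher and 14.6% lower. HLA-DRA, an MHC class II chain, rose 4.92-fold but from 0.435, 0.682 and 0.132 CPM to only 2.62, 1.96 and 2.39 CPM. Of 32 interferon-stimulated genes 8 rose and 3 fell, and HERC5, a ligase for the ubiquitin-like ISG15, fell 3.06-fold. Of 20 surface proteins used as therapy targets 4 rose and 5 fell. TMEFF2 fell from 25.7, 24.2 and 30.2 CPM to 5.43, 5.31 and 5.17 CPM. FOLH1, which encodes prostate-specific membrane antigen, was at 1399, 757 and 832 CPM under DMSO and 967, 991 and 960 CPM under enzalutamide. It was not called with all 6 libraries (-0.03, adjusted p 0.88) and was called higher without DMSO replicate 1 (0.29, adjusted p 9.4e-05). The channel list had 9 of 38 higher and 10 lower, among them KCNN2, a calcium-gated potassium channel, at 147, 161 and 161 CPM against 34.7, 32.2 and 25.9 CPM. In the BCL2 family the death-promoting BMF rose 2.05-fold and PMAIP1 fell 2.16-fold, with 4 of 16 higher and 5 lower. PER1, a clock gene, fell from 29.8, 29.1 and 29 CPM to 14.6, 12.6 and 12.6 CPM.

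Cell division genes were close to their control level at 72 h, where 12.7% of all genes tested were higher and 14.6% lower. Of 54 mitotic genes 6 rose and 3 fell, with a median log2 fold change of -0.01. MKI67, a marker of dividing cells, was at 196, 215 and 194 CPM against 196, 254 and 211 CPM, with overlapping groups (0.12 ± 0.11, adjusted p 0.44). CDCA8, of the chromosomal passenger complex, rose from 42.4, 52.2 and 57.9 CPM to 68.9, 63.5 and 65.1 CPM (0.35 ± 0.07, adjusted p 1.6e-04). Of 60 DNA replication genes 17 fell and 1 rose, with a median of -0.13, and without DMSO replicate 1 the counts were 13 and 1 with a median of -0.07. RFC4, a clamp loader subunit, was at 61.3, 44.5 and 51.9 CPM against 37.7, 34.5 and 38.2 CPM. TK1, thymidine kinase, was the 1 that rose (0.27 ± 0.06, adjusted p 7.4e-04). In the fit of the 6 libraries 4 replication genes were lower and 1 mitotic gene was higher. Of 38 homologous recombination genes 1 rose and 2 fell, and 6 were called without DMSO replicate 2. BRCA1 was at 51.8, 48.8 and 48.7 CPM against 52, 48.5 and 48.7 CPM (0.01 ± 0.09, adjusted p 0.97). PARP1, the main target of olaparib, fell from 865, 643 and 668 CPM to 549, 559 and 550 CPM (-0.39 ± 0.06, or -0.25 without replicate 1).

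**Figure D2:**
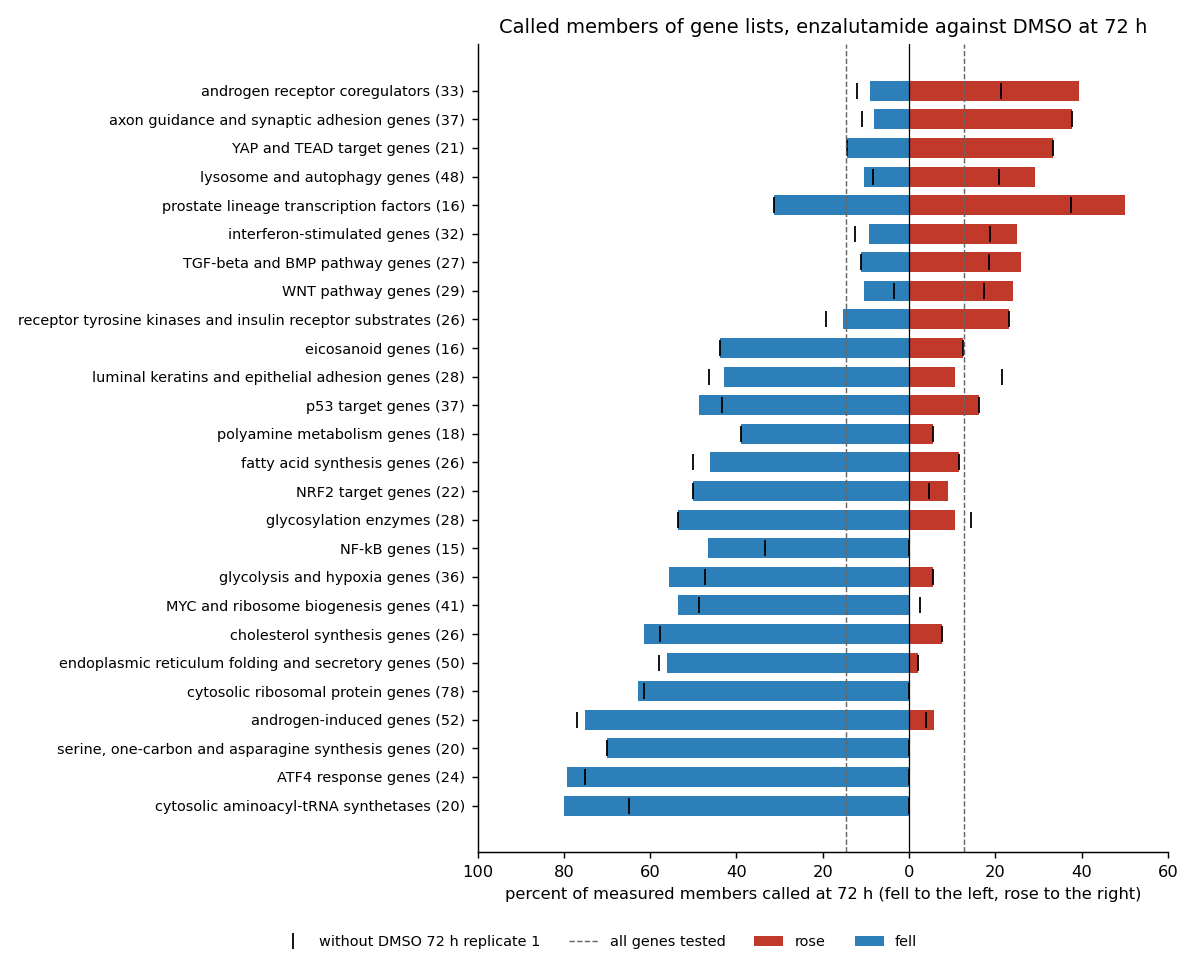
Percent of each gene list's measured members (number in parentheses) that fell (left) or rose (right) at 72 h, with ticks for the values without DMSO replicate 1 and dashed lines for all genes tested (14.6% lower and 12.7% higher). Shown are the 17 lists with the largest net share of falls and the 9 with the largest net share of rises, among lists with at least 15 measured members, and the ticks stay on the same side of the dashed line as the bar for aminoacyl-tRNA synthetases, ATF4 response genes and androgen-induced genes.

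How far the result leaned on DMSO replicate 1 was read by leaving it out. Without it 3734 genes were called (23.7%), 1723 higher (10.9%) and 2011 lower (12.8%), of which 3255 were among the 4287 called with it, in the same direction. Thus 75.9% of the calls were kept, 1032 were lost and 479 were gained. The lost calls were small, with a median absolute log2 fold change of 0.30 against 0.46 for those kept, and 467 of them were rises and 565 falls. Of the 596 genes called at 2-fold or more, 547 were still called (91.8%). Among the 49 lost were SNAI2, which had 13 counts under DMSO and 3 under enzalutamide, and PRIMA1, at 0.217, 2.42 and 1.05 CPM under DMSO. The log2 fold change of a called gene moved by a median of 0.0646, 10 called genes moved by more than 0.5, and HOOK2 alone changed sign, from -0.30 to 0.02.

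The number of calls also turned on how the spread was estimated. The fit of all 36 libraries took 1 spread from 12 groups, 6.44% on average. A fit of only the 6 libraries, with 10%, called 1943 genes (12.3%), 992 higher (6.3%) and 951 lower (6.04%), of which 1940 were also among the 4287. The same fit without DMSO replicate 1 called 3583 genes (22.8%), 10.8% higher and 11.9% lower, so that without that library the counts from 6 and from 36 libraries were close, at 3583 and 3734. Leaving out DMSO replicate 3, enzalutamide replicate 1, 2 or 3 from the 6 in turn gave 1203, 878, 896 and 786 calls, and leaving out DMSO replicate 2 gave 2295. Several lists had fewer called members in the fit of the 6 libraries than given above. The synthetases had 10 lower, the MYC and ribosome biogenesis genes 11 lower, and the NF-kB genes 4 lower. The luminal keratin and adhesion genes had 2 higher and 7 lower, the interferon-stimulated genes 2 and 3, the surface targets 1 and 4, the polyamine genes 1 and 4, the PI3K and mTOR genes 5 and 3 and the WNT genes 4 and 1. In all 4 fits, of 36 or 6 libraries with and without DMSO replicate 1, 1926 genes were called. Of the 596 genes at 2-fold or more, 476 were called in the fit of the 6 libraries and 524 in that fit without replicate 1, and 433 were called in the fit of 36 libraries whichever of the 6 was left out.

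DMSO replicate 1 differed from its pair in both directions. Over 9445 genes with a mean of at least 10 CPM, its median absolute distance from the mean of the other controls was 0.223 on the log2 scale, against 0.146 and 0.124 for replicates 2 and 3 and 0.0645 to 0.0803 for the enzalutamide cultures. Over all 15744 genes tested, low counts included, it was the highest of the 3 controls for 40.3% and the lowest for 41.9%. Ties were counted to it. Mitochondrial genes such as MT-ND4 and MT-CYB lay furthest below the other controls. The 1889 genes with the shortest exons, up to 2925 bases, had a median of 0.07 above them, and 4 like bins of longer genes -0.01 to 0.00. In list medians, extracellular matrix and mesenchymal genes were 0.29 above the other controls and MYC and ribosome biogenesis genes 0.20 above. Androgen-induced genes were 0.15 below (-0.15) and fatty acid synthesis genes 0.18 below (-0.18). The part of RNA quality or depth in these differences was not tested.

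**Figure D3:**
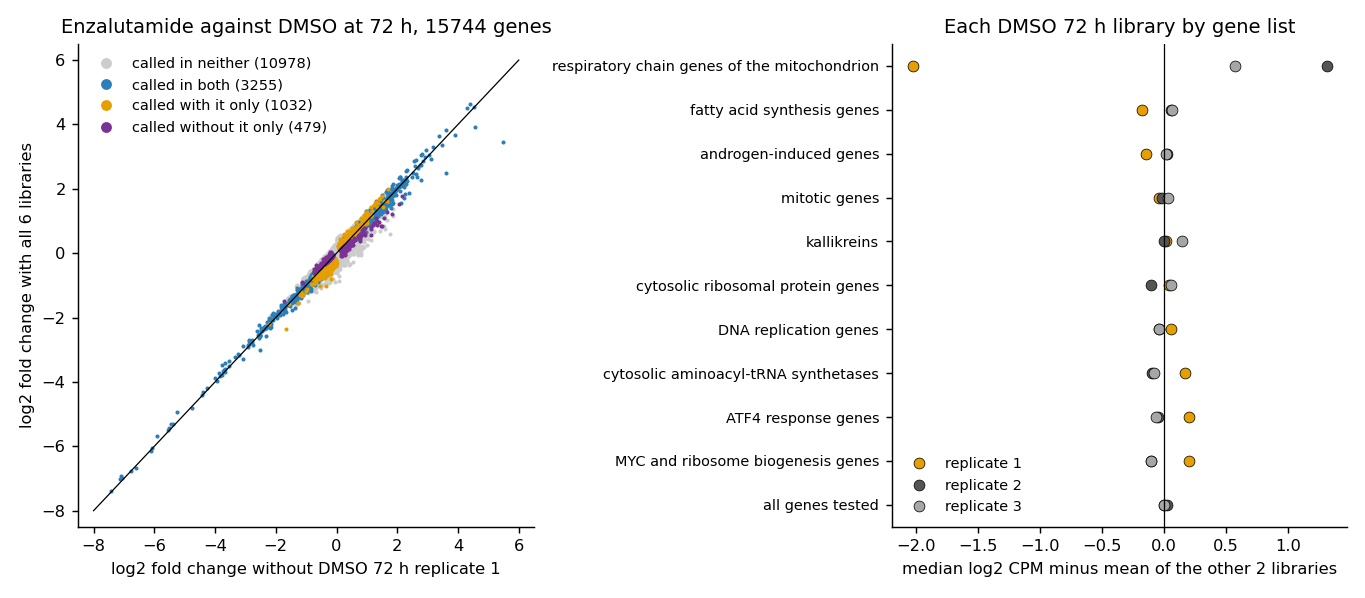
Left, log2 fold change at 72 h of 15744 genes with all 6 libraries (vertical) against that without DMSO replicate 1 (horizontal), coloured by call; the 3255 genes called both times lie along the diagonal, while the 1032 called only with it and the 479 called only without it lie nearer to 0. Right, the median log2 level of each DMSO 72 h library minus the mean of the other 2, by gene list. Replicate 1 is at -2.03 for the respiratory chain genes of the mitochondrion and within 0.20 of 0 for the other 9 lists drawn and all genes. Among lists not drawn, it is at 0.29 for extracellular matrix and mesenchymal genes, 0.33 for steroid receptors and 0.32 for stromal, endothelial and blood markers.

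Against earlier hours, the 72 h effect was larger and partly different. Enzalutamide against DMSO called 476 genes at 8 h (3.02%; 1.09% higher and 1.94% lower), 2960 at 24 h (18.8%; 8.21% higher and 10.6% lower) and 4287 at 72 h. The 24 h and 72 h comparisons share no library. Called in the same direction at both were 1472 genes, 34.3% of the calls at 72 h and 49.7% of those at 24 h, and 106 were called in opposite directions. Over all 15744 genes the log2 fold changes had a Pearson correlation of 0.579, a description across genes that are not independent. Of the 1032 calls that were lost without DMSO replicate 1, 121 were also called in the same direction at 24 h (11.7%). The vehicle alone differed little between the hours, with 23 genes called at 72 h against 24 h (0.146%), 13 higher (0.0826%) and 10 lower (0.0635%). Enzalutamide at 72 h against 24 h called 2172 (13.8%), 1135 higher (7.21%) and 1037 lower (6.59%).

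The change of the effect from 24 h to 72 h was tested in itself and was called for 1481 genes (9.41%), 762 toward a higher (4.84%) and 719 toward a lower effect (4.57%). Of these counts, the total was 579 in a fit of only the 4 groups and 2226 without DMSO replicate 2. The kallikreins fell further: KLK3 was at 101, 102 and 69.9 CPM under 24 h of enzalutamide, and its effect changed by -3.70 ± 0.18 (adjusted p 1.4e-17). All 5 kallikreins changed this way, while of the 52 androgen-induced genes the effect moved downward for 14 and upward for 1, with 7 downward in the fit of only the 4 groups. AOC1 rose further (3.19 ± 0.56, adjusted p 1.4e-04).

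Cell division genes took the opposite course. At 24 h, 46 of 54 mitotic and 55 of 60 replication genes were lower and none higher. By 72 h the effect had moved upward for 34 genes of each list and downward for none. Over the alternatives tried, 25 to 35 mitotic and 23 to 38 replication genes moved upward, and at most 1 replication gene moved downward. Relative to DMSO at 8 h, the median log2 level of the mitotic list was -0.47, -0.52 and -0.42 in the enzalutamide cultures at 24 h and 0.04, 0.04 and 0.00 at 72 h, with the DMSO cultures between -0.07 and 0.04 at all hours. The replication list went from -0.50, -0.57 and -0.52 to -0.07, -0.12 and -0.11. MKI67, at 237, 218 and 254 CPM under DMSO and 150, 150 and 164 CPM under enzalutamide at 24 h, had a change of effect of 0.73 ± 0.15 (adjusted p 0.0012). TOP2A, topoisomerase 2 alpha, was at 139, 129 and 152 CPM against 109, 96 and 107 CPM at 24 h, and at 138, 132 and 130 CPM against 149, 161 and 148 CPM at 72 h. Its groups were apart at both hours and in opposite order, and groups were apart at 72 h for 35.4% of all genes tested. The rise of TOP2A at 72 h, 0.20 on the log2 scale, was not called in the fit of the 6 libraries. Nor was it called without DMSO replicate 2 or 3, or without enzalutamide replicate 2. Of the 38 homologous recombination genes 20 were lower at 24 h and 13 had moved upward by 72 h.

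The ATF4 genes went from higher to lower. Of the 24, 13 were higher at 24 h and 1 was lower, and 11 of those 13 were lower at 72 h. The effect moved downward for 20, or 16 to 20 over the alternatives. Their median level was 0.20, 0.26 and 0.22 above DMSO at 8 h in the 24 h enzalutamide cultures, and -0.52, -0.58 and -0.52 at 72 h. DDIT3, a death-promoting factor of this response, was at 21.1, 19.4 and 16.9 CPM under DMSO and 34.9, 31.5 and 31.2 CPM under enzalutamide at 24 h. At 72 h it was at 29.8, 21.5 and 21.1 CPM against 14.6, 13.4 and 12.2 CPM, a change of effect of -1.56 ± 0.16 (adjusted p 5.4e-09). It shares 31.6% of its exon bases with MARS1 and MBD6, which makes its level uncertain. Of the 50 secretory genes 8 were higher and 2 lower at 24 h, and 5 were higher at 24 h and lower at 72 h. Their effect moved downward for 25, or 15 to 26 over the alternatives.

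**Figure D4:**
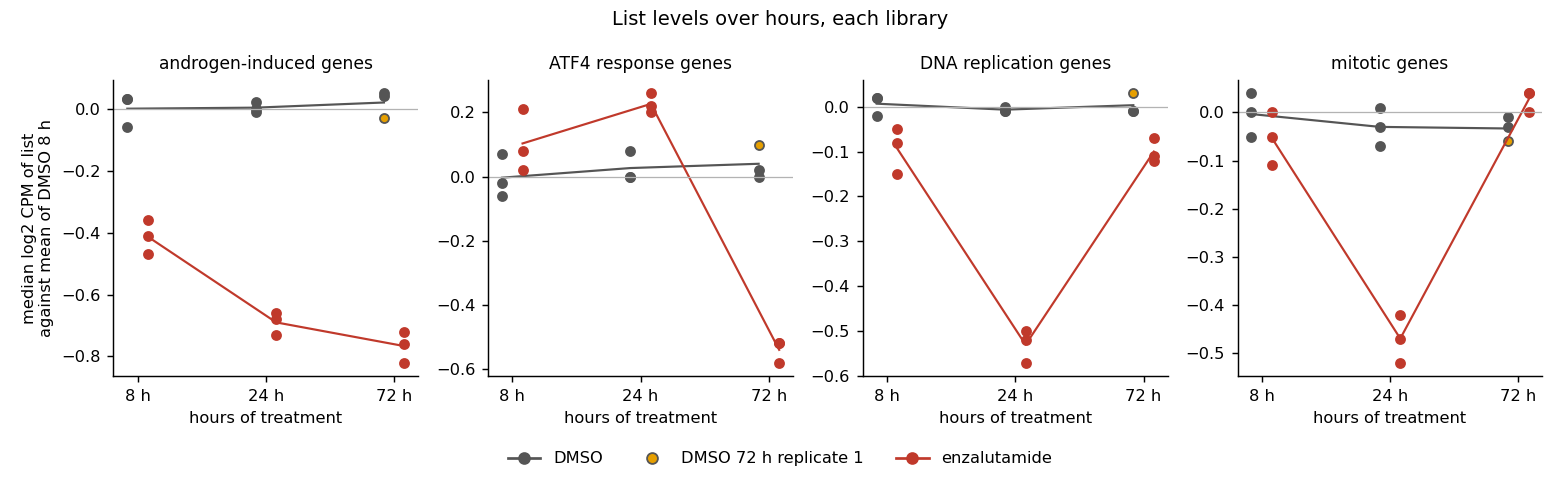
Median log2 CPM of 4 gene lists in each DMSO and enzalutamide library, against the mean of DMSO at 8 h (vertical), by hours of treatment (horizontal), with lines through group means and DMSO 72 h replicate 1 in orange. Enzalutamide cultures are lower at 24 h and again near 0 at 72 h for the mitotic genes, fall between 24 h and 72 h for the ATF4 genes, and decline in their mean from 8 h to 72 h for the androgen-induced genes.

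Enzalutamide was also measured at 72 h on top of olaparib, as the combination against olaparib alone, in 6 libraries that hold none of these controls. There 5391 genes were called (34.2%), 2564 higher (16.3%) and 2827 lower (18%). Called in the same direction in both were 2918 genes, 68.1% of the calls without olaparib and 54.1% of those with it, and 31 were called in opposite directions. The correlation of log2 fold changes over 15744 genes was 0.747, and 0.748 without DMSO replicate 1. Without that replicate 74.7% of the calls were also called with olaparib. Of the 1032 calls lost without it, 395 were called in the same direction with olaparib (38.3%), and of the 596 genes at 2-fold or more 467 were (78.4%). KLK3 was at 621, 659 and 607 CPM under olaparib and 5.55, 6.29 and 5.46 CPM under both drugs, a log2 fold change of -6.74 beside -6.67 without olaparib. FOLH1 was called higher with olaparib (0.41, adjusted p 0.0027), as it was here without DMSO replicate 1.

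The difference between the effects without and with olaparib, a contrast added after values had been seen, was called for 356 genes (2.26%), 205 with a higher (1.3%) and 151 with a lower effect without olaparib (0.959%). The count was 57 in a fit of only the 4 groups, ranged from 205 to 862 as single libraries were left out, and was 862 without DMSO replicate 2. It was 205, 226 and 234 without olaparib replicates 1, 2 and 3, 225 and 212 without combination replicates 2 and 3, and 237 without enzalutamide replicate 1. Cell division genes held many of them: 34 of 54 mitotic genes and 20 of 60 replication genes had a higher effect without olaparib and none a lower one, with 10 and 4 in the fit of only the 4 groups. The mitotic count was 20 without olaparib replicate 1 or without combination replicate 2. The replication count was 11 and 12 without olaparib replicates 1 and 2, and 13 and 11 without combination replicates 2 and 3. TOP2A was at 139 ± 0.462 CPM under olaparib and 114 ± 3.65 CPM under both drugs (SD, n = 3), a difference between effects of 0.49 ± 0.09 (adjusted p 0.0026). Of the 24 ATF4 genes 12 had a lower effect without olaparib, or 6 to 13 over the alternatives. TRIB3 was at 77.1, 79.1 and 84.3 CPM under olaparib alone, near the 89.9, 79.7 and 88.2 CPM of enzalutamide alone, and at 50.9, 57.1 and 66.4 CPM under both. No kallikrein differed by this edgeR test, and the alternatives tried gave 0 as well. RFX6, a transcription factor, was at 1.96, 2.12 and 2.11 CPM under DMSO and 6.94, 6.29 and 7.32 CPM under enzalutamide, and at 7.81, 8.18 and 8.52 CPM under olaparib and 7.46, 6.8 and 4.78 CPM under both, a difference of 2.08 ± 0.28 (adjusted p 2.1e-05).

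**Figure D5:**
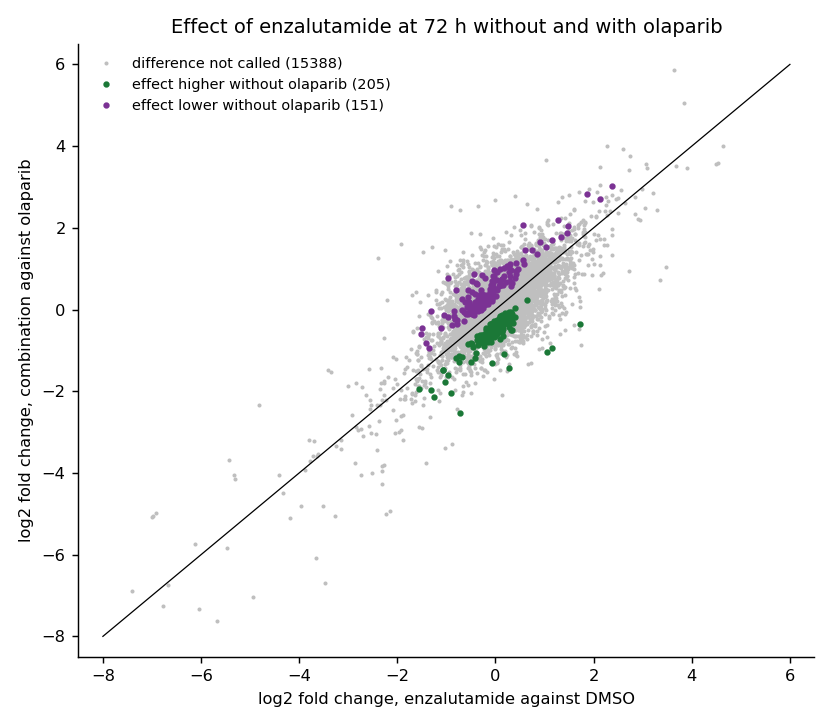
Log2 fold change of enzalutamide at 72 h without olaparib (horizontal) and with olaparib (vertical) for 15744 genes, with the diagonal drawn and the 356 genes whose difference was called in green (205, higher without olaparib) and purple (151, lower without olaparib). The points follow the diagonal with a correlation of 0.747, and the kallikreins at the lower left lie among the genes whose difference was not called.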

How the data were processed

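RNA was sequenced from 36 LNCaP cultures, 3 in each of 12 groups. The authors deposited 1 table of raw counts per gene, made with featureCounts 2.0.0 on Ensembl release 99 per the file headers, from fragments of 20 to 5000 bases and without strand. STAR and hg38 are named in the submitters' processing notes. Reads of overlapping or near-identical genes may be divided or lost. Of 60676 genes in the table, 15744 passed edgeR's filterByExpr and held 99.8% of counts.

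Counts were fitted with edgeR 4.0.16 (R 4.3.3, limma 3.58.1; quasi-likelihood test, TMM scaling, 12 group means, all 36 libraries), and p-values were adjusted by Benjamini-Hochberg over 15744 genes with a threshold of 0.05. Values after ± are standard errors of log2 fold changes. Alternatives were DESeq2 1.42.0, RLE size factors, other filters, voom with sample quality weights, lane or replicate number as a term, the compared groups alone, and leaving out each library. On data simulated for the 72 h comparison over 15744 genes, the test called 162 of 200 changed genes (81%) and 4 unchanged ones. All simulated libraries shared 1 spread per gene, without the 14.3% among the real DMSO cultures or a deviating replicate 1. Changed genes had a mean of at least 1 CPM, and each change was larger than the median called one of 1.33-fold. The figures therefore do not measure recovery or false calls among the 4287 genes called.

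Named genes were the 12 highest and 12 lowest log2 fold changes among genes called also in the fit of the 6 libraries, with a mean of at least 1 CPM, groups apart and an ordinary symbol, the 5 largest rises and falls in CPM, up to 4 members per list and direction, the 5 largest changes of effect each way, and check genes. Members, lists and tests were chosen with earlier results of these data known, and the contrast without and with olaparib, the fits leaving out 1 of the 6 libraries, SNAI2, PRIMA1, NPM1, BRCA1, MKI67, TOP2A and other single genes were added after values were seen.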

Additional observations from a re-analysis of the deposited data

Results flagged for a closer look

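The effect of enzalutamide differed between 24 h and 72 h, by the test of the difference itself, for 1481 genes. Among the largest upward changes in log2 effect were AOC1 at 3.19, HSPA12B, a chaperone relative, at 2.02, the pseudogene RRM2P3 at 1.91, DEGS2 at 1.89 and PRIMA1, which anchors acetylcholinesterase, at 1.81. PRIMA1 was called at 72 h with all libraries (adjusted p 0.015, edgeR) and not without DMSO replicate 1 (adjusted p 0.063). The largest downward changes were KLK3 at -3.70, KLK2 at -3.43, PLOD2, a collagen lysyl hydroxylase, at -2.91, PGC at -2.69 and ST6GALNAC1 at -2.69. PLOD2 differed from DMSO by 0.26 at 24 h and by -2.64 at 72 h.

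The effect at 72 h differed without and with olaparib, again by the test of the difference, for 356 genes. Effects were higher without olaparib for ADAMTS3, a procollagen protease, by 2.10, RFX6 by 2.08, AFF3, a transcription elongation factor, by 1.81, TMCC3 by 1.72 and DOK3, a signal adaptor, by 1.25. ADAMTS3 was 1.06 higher than control without olaparib and differed by -1.04 with it. Its call at 72 h without olaparib (adjusted p 0.034, edgeR) was lost by DESeq2 (adjusted p 0.1), with no filter, in the fit of the 6 libraries (adjusted p 0.077), by voom and without DMSO replicate 2 or 3 or enzalutamide replicate 1 or 2, with adjusted p between 0.03 and 0.21 over all alternatives. AFF3 was at 9.13, 9.24 and 9.22 CPM under DMSO and 5.53, 5.45 and 5.65 CPM under enzalutamide, and at 14.7, 13.4 and 13.3 CPM under olaparib and 0.957, 3.15 and 2.32 CPM under both. Effects were lower without olaparib for CD55, a complement inhibitor, at -1.73, VPS37D at -1.49, the ubiquitin ligase RNF128 at -1.31, DDIT3 at -1.28 and KANK3 at -1.28. KANK3 shares 10.2% of its exon bases with RPS28, and DDIT3 shares bases as given above.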

How the results depend on the processing

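The count of 4287 genes at 72 h was 4267 with RLE size factors, 3891 by DESeq2, 3973 without a filter and 3439 by weighted voom on the 6 libraries. A fit of only the groups compared gave 1943 genes at 72 h, 579 for the change from 24 h to 72 h and 57 for the effect without minus with olaparib, but 6086 against 5391 for enzalutamide on top of olaparib. Leaving out single libraries gave 3508 to 4558 at 72 h, 1010 to 2226 for the change of effect, 4366 to 4811 with olaparib and 205 to 862 for the difference, with the highest of 2226 and 862 both without DMSO 72 h replicate 2. In the fit of the 6 libraries the range was 786 to 3583: 3583 without DMSO replicate 1, 2295 and 1203 without replicates 2 and 3, and 878, 896 and 786 without enzalutamide replicates 1, 2 and 3. For the difference, the cause was not tested; 57.6% of its genes were higher without olaparib, against 45.4% with no filter, 48.7% at a mean of at least 1 CPM and 49.4% without mitochondrial genes. For same-numbered cultures at 72 h, deviations from the group means had correlations of 0.0542, -0.0153 and -0.0985. So few values cannot settle whether cultures were set up in pairs, and the main fit did not pair them. With a replicate block 4361, 1554, 5361 and 365 genes were called for the 4 comparisons. HOOK2 turned from -0.30 to 0.02 without DMSO replicate 1 in the fits of 36 and of 6 libraries, and ranged from -0.46 to 0.02 as single libraries were left out. The lowest depth of the 6 libraries compared, 4.66 M counts in DMSO replicate 1, limits genes near 1 CPM most.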

Other observations

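Of 48 measured genes of lysosomes and autophagy 14 rose and 5 fell, beside 12.7% higher and 14.6% lower of all genes tested. Their median log2 fold change was 0.10, and 10 rose and 4 fell without DMSO replicate 1. In the median of this list that replicate stood at -0.11 from the other controls. In the fit of the 6 libraries 4 rose and 3 fell, where all genes tested had 6.3% higher and 6.04% lower. TPP1, a lysosomal peptidase, was at 61.3, 143 and 136 CPM under DMSO and 159, 169 and 164 CPM under enzalutamide, so that replicate 1 was far below the other controls, and its log2 fold change of 0.49 was 0.23 without it. ACP3, prostatic acid phosphatase, rose from 10.4, 12 and 13.2 CPM to 23.5, 26 and 28.2 CPM (1.11 ± 0.11). Of 22 NRF2 targets, genes of the oxidant defence, 11 fell and 2 rose, 8 and 0 in the fit of the 6 libraries. Of 37 p53 targets 18 fell and 6 rose, 9 and 4 in that fit. DDIT4, a stress inhibitor of mTOR, fell from 157, 131 and 145 CPM to 75.1, 62.9 and 81.6 CPM, while SESN1, a sestrin, rose by 0.92 on the log2 scale.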
